A study of Mus musculus with 9 samples.

Results

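The genes described here are 10 genes of cholesterol export and lipid storage in the pathways of the liver X receptors (LXR) and of peroxisome proliferator-activated receptor γ (PPARγ). They are the receptor genes Nr1h2 (LXRβ), Nr1h3 (LXRα) and Pparg, the export genes Abca1, Abcg1 and Apoe, the uptake regulator Mylip, and the lipid storage genes Plin2, Fabp4 and Lpl. They were taken by symbol from 52476 genes with a name or identifier, after the Ensembl identifiers had been matched to mouse symbols and identifiers of the same symbol had been summed. All 10 were listed once, and all 10 were among the 11768 genes tested, which had 1 FPKM or more in at least 3 of 9 libraries. FPKM counts fragments relative to transcript length and to the depth of the library, so levels of different genes can be set side by side.

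The 9 mRNA-seq libraries came from dendritic cells grown from bone marrow monocytes of C57BL/6 mice. Monocytes were kept for 7 days in 10% serum with GM-CSF at 100 ng/mL and IL-4 at 50 ng/mL, the cytokines that turn monocytes into dendritic cells, and were then sorted by flow cytometry. The 3 control libraries had no stimulation. The 3 R837 libraries came from cells primed with interferon α for 24 h and then kept for 18 h with R837 (imiquimod, an agonist of Toll-like receptor 7). The 3 libraries of R837 with spermidine came from cells treated in the same way with the polyamine spermidine added during those 18 h. Priming of the controls, the doses of R837 and spermidine, and the origin of replicates in separate cultures or mice are not given in the labels. P-values thus reflect only how far these libraries scatter, and that scatter may be technical. No group had spermidine without R837.

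LXRα and LXRβ are nuclear receptors that bind oxysterols and, paired with a retinoid X receptor, switch on genes that carry cholesterol out of the cell. PPARγ is a nuclear receptor for fatty acids and their derivatives. It also pairs with a retinoid X receptor, is induced by IL-4 in macrophages and dendritic cells, and raises genes of fatty acid uptake and storage. Both receptors are known to restrain inflammatory genes in macrophages, and Toll-like receptor signals are known to lower several of their targets there.

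LXR heterodimers typically bind a repeat of the half-site AGGTCA with a gap of 4 bases (DR4), and PPAR heterodimers the same repeat with a gap of 1 base (DR1). Windows of 250 bases before the annotated starts, from RefSeq on GRCm38.p6, held 7 of the 10 members with 12 starts. Abcg1, Fabp4 and Lpl had no entry. The stretches of 3 members are shown, without bases of annotated exons: Plin2, which moved in every comparison and holds the closest DR1 match among the members, Abca1, which was called in none and holds the closest DR4 match, and Nr1h3, the receptor gene that rose. They run 5′ to 3′ on the strand of the gene, and capitals mark the DR4 or DR1 match with the fewest mismatches in the stretch, on either strand.
Plin2: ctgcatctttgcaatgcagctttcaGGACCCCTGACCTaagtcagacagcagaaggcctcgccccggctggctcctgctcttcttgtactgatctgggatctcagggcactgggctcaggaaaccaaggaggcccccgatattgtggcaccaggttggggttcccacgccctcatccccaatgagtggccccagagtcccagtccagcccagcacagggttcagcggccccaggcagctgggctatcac
Abca1: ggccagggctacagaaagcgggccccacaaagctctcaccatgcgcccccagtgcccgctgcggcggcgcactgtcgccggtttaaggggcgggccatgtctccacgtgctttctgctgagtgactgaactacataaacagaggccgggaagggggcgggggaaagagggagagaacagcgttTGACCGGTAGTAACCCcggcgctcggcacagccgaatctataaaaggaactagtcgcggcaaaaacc
Nr1h3: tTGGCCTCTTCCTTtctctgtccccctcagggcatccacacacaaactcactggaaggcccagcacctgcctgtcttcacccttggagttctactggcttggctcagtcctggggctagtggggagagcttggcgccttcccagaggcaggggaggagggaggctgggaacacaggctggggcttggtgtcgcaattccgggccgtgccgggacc

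The Plin2 stretch is chr4:86670061-86670309, minus strand, on GRCm38.p6. Its capitals are a DR1 match on the opposite strand with 2 mismatches over 12 fixed letters, from base 225 to base 213 before the start. A match to the letters AGGTCANAGGTCA with at most 2 mismatches on either strand was held by 3.24% of 32851 RefSeq windows of 250 bases. The Abca1 stretch is chr4:53159896-53160145, minus strand, and its capitals are a DR4 match on the opposite strand with 3 mismatches, from base 67 to base 52 before the start. A match to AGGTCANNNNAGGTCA with at most 3 mismatches was held by 18.5% of the windows. The Nr1h3 stretch is chr2:91195152-91195366, minus strand, before the first of 2 RefSeq starts. It lies inside the annotated gene, chr2:91184061-91202834, whereas the stretches of Plin2 and Abca1 lie outside their annotated genes. The closest match within the Nr1h3 stretch was a DR1 with 4 mismatches, a number reached by 74.5% of windows. Its whole 250-base window, which runs on into bases not printed here, also held a DR4 with 4 mismatches, as did 70.6% of windows. The single half-site AGGTCA without mismatch occurred in 3 of the 12 member windows, those of Plin2 and of 2 of the 3 starts of Pparg, and in 14.0% of all windows. These matches are descriptions of letters in these windows.

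R837 was accompanied by lower levels of Pparg, Abcg1, Plin2 and Fabp4 and a higher level of Nr1h3. The other 5 members (Nr1h2, Abca1, Apoe, Mylip and Lpl) were not called in this comparison. With spermidine added to R837, Plin2 was higher and Nr1h3 lower than with R837 alone, and both stood between the R837 and control levels. Pparg, Abcg1 and Fabp4 stayed below control with spermidine. In the comparisons with control, R837 and the interferon α priming of the treated cells cannot be told apart, since it is not known whether the controls were primed. Tests were made with limma on log2(FPKM + 1) over all 11768 genes, with Benjamini-Hochberg adjustment and a threshold of 0.05, and differences below are on that log2 scale.

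In numbers, R837 against control called 1 member higher and 4 lower, beside 13.6% of all tested genes higher and 29.5% lower. R837 with spermidine against R837 called 1 higher and 1 lower, beside 5.6% and 8.0% of all genes. R837 with spermidine against control called 1 higher and 4 lower, beside 14.1% and 32.7%. These counts lie close to the shares over all genes, so they are no result about the members as a group, and the genes are described one by one. The median difference of the members was -0.12, -0.11 and -0.25 in the 3 comparisons, and that of all tested genes -0.17, -0.02 and -0.17. Each group enters 2 of the comparisons, so the comparisons share libraries and are not independent. In a bulk library a lower level can mean fewer cells of a type or less RNA per cell, and these cannot be told apart.

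The depth read from the steps between low FPKM values was 10700000 to 14400000 units per library. At that depth the lowest member value, that of Pparg in an R837 library, rested on about 134 units, a counting error of 8.65%. Under another scaling by the median of ratios, the median difference of all genes moved from -0.17 to -0.02 for R837 against control and from -0.17 to -0.004 for R837 with spermidine against control. The share of calls that were higher then moved from 31.6% to 52.4% and from 30.1% to 52.5%. With quantile normalization it was 43.6% and 43.8%. The member calls for R837 against control were the same 5 under both of these scalings, with Fabp4 the smallest at -0.34 (limma adjusted p = 0.0256) after median-of-ratios scaling. Dendritic cell markers were present, with Cd74 at 2086 to 2735, H2-Ab1 at 405 to 579 and Itgax at 88.4 to 108 FPKM over the 9 libraries. Cd209a, however, was listed at 0 in every library and Flt3 reached at most 0.418 FPKM. Macrophage markers were present as well, with Cd68 at 718 to 1053 FPKM. Of the adipocyte markers, the defining genes Adipoq, Lep and Plin1 were listed at 0 in all 9 libraries, and the 6 markers summed to at most 2.65 FPKM.

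Markers of the cells themselves also moved between the groups. The 10 dendritic cell markers summed to 3009 to 3052 FPKM in the controls, 3143 to 3662 with R837 and 3011 to 3127 with spermidine. That sum was made up mostly of Cd74, which was called in no comparison (limma adjusted p = 0.0591 with R837). Of the 8 markers that were tested, 3 were called higher with R837 and 1 lower, beside 13.6% and 29.5% of all tested genes. The numbers were the same for R837 with spermidine relative to control, beside 14.1% and 32.7%. Irf4, a transcription factor of dendritic cells, was at 15.2 ± 0.0829 FPKM in control, 41.0 ± 3.42 in R837 and 33.3 ± 0.987 in spermidine libraries (SD, n = 3), and its rise with R837 was called (limma adjusted p = 1.2e-06). Zbtb46, a transcription factor of classical dendritic cells and also among the 3 called higher, was at 0.596 FPKM in control and 1.98 in R837 libraries. Its control libraries lay at 0.483 to 0.737 FPKM, so it passed the filter only through the treated libraries. Ccr7, the chemokine receptor of migrating dendritic cells, rose from 80.3 to 107 FPKM with R837. The lectin gene Mgl2 fell from 69.5 to 50.7 FPKM. With spermidine relative to R837, Irf4 was the only one of the 8 called, and it was lower (limma adjusted p = 0.0361), a call lost in 11 of 19 alternatives.

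The 8 macrophage markers, all tested, summed to 1446 to 1612 FPKM in the controls, 1468 to 1653 with R837 and 1334 to 1493 with spermidine, ranges that overlapped. With R837, 2 were called lower and none higher, beside 29.5% and 13.6% of all tested genes. With spermidine relative to R837 the same 2 were called higher, beside 5.6% of all tested genes. These were Mrc1, the mannose receptor, with means of 54.9 FPKM in the controls, 37.0 with R837 and 51.0 with spermidine, and Fcgr1, a high-affinity receptor for IgG, with means of 33.0, 22.0 and 28.0. Their calls with R837 held in all 19 alternatives, whereas those with spermidine relative to R837 were lost in 10 for Mrc1 and 6 for Fcgr1. Relative to control, Fcgr1 and the complement gene C1qc were called lower with R837 and spermidine, calls lost in 11 and 9 of 19 alternatives, median-of-ratios scaling among them for both. Plin2, Lipa and Cd36, described below, were likewise called lower with R837 and higher with spermidine relative to R837. The 5 alveolar macrophage markers summed to 5163 to 5925 FPKM in the controls, 1701 to 4963 with R837 and 5544 to 6452 with spermidine, a sum made up mostly of Chil3. None of the 4 that were tested was called with R837, and 1, Siglecf, was called lower with spermidine relative to R837 and to control, calls lost in 15 and 6 of 19 alternatives. The part of these markers in the differences of the members was not tested.

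The R837 libraries 2 and 3 stood apart from the rest. The 5 erythroid markers summed to 1978 FPKM at most in an R837 library and to at most 11.0 in a control library and 0.0917 in a library with spermidine. Hba-a1, an α-globin, was at 0, 72.4 and 487 FPKM in the R837 libraries 1, 2 and 3. The 7 neutrophil and granulocyte precursor markers summed to 72.4, 71.0 and 344 FPKM in the R837 libraries 1, 2 and 3, to 57.8 to 66.1 in controls and to 50.4 to 54.5 with spermidine, so that only library 3 stood far from the others on these markers. In the R837 library 2 the integrin gene Itgam was at 37.1 FPKM, against 110 and 130 in the other R837 libraries. Without the R837 libraries 2 and 3, an alternative added after these markers were seen, the numbers of members called were again 5, 2 and 5, although 826 genes were called for R837 with spermidine against R837, in place of 1601. The single R837 library left was assumed to vary like the other groups.

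**Figure D1:**
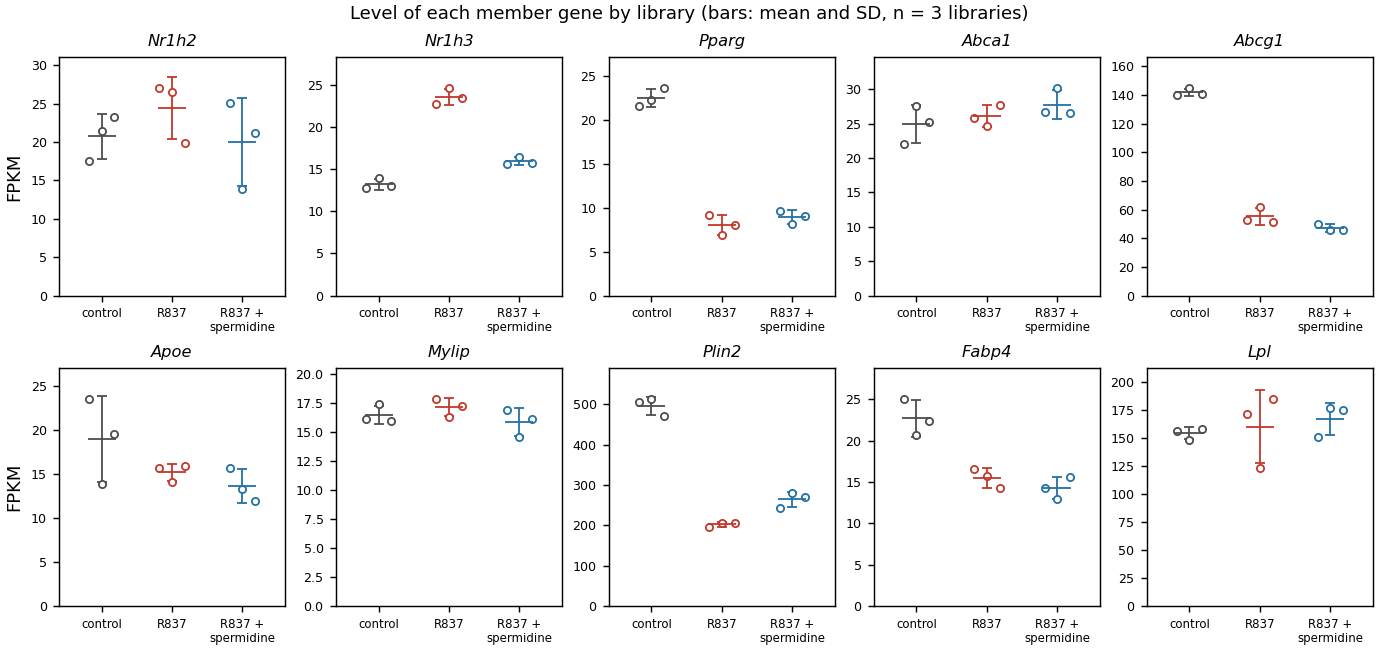
Level of each of the 10 members in FPKM (vertical axes, each from 0) in the 3 control, 3 R837 and 3 R837 with spermidine libraries; circles are libraries, and bars are means with SD. The R837 circles of Pparg, Abcg1, Plin2 and Fabp4 lie below every control circle and those of Nr1h3 above, while Nr1h2, Abca1, Apoe, Mylip and Lpl overlap between groups.

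Nr1h3 encodes LXRα, the LXR form whose level varies between tissues and with macrophage state. It was at 12.7, 13.9 and 13.0 FPKM in the control libraries, 22.8, 24.6 and 23.4 with R837, and 15.6, 16.5 and 15.7 with R837 and spermidine. No library of one group overlapped with another group. Nr1h3 rose by 0.79 ± 0.07 (log2 difference ± SE, n = 3 libraries per group) with R837 (limma adjusted p = 2.3e-05). It fell by 0.54 ± 0.07 with spermidine relative to R837 alone (limma adjusted p = 0.0018). With R837 and spermidine it was still 0.25 ± 0.07 above control (limma adjusted p = 0.0154), a call that ended without control library 1, control library 3 or spermidine library 2 (limma adjusted p = 0.0596, 0.0527 and 0.0553). Nr1h3 lies at chr2:91184061-91202834 on the minus strand and overlaps the annotated genes Gm13783 and Gm23390. The sources used here do not say whether counting used the strand, so reads of the overlapping genes may be included.

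Nr1h2 encodes LXRβ, which is expressed in most tissues. Its values were 17.5, 21.4 and 23.2 FPKM in the controls, 27.0, 26.5 and 19.8 with R837, and 25.1, 13.8 and 21.2 with spermidine, so all 3 groups overlapped. Its difference was 0.22 with R837 (95% interval -0.25 to 0.70) and -0.30 with spermidine relative to R837 (-0.77 to 0.17), and neither was called. The ratio of Nr1h3 to Nr1h2 was 0.560 to 0.727 in the control libraries, 0.843 to 1.18 with R837 and 0.622 to 1.19 with spermidine. Nr1h3 was thus below Nr1h2 in all 3 controls, and the R837 ratios lay above the control ratios, whereas those with spermidine spanned both. Nr1h2 lies at chr7:44549616-44553951 on the minus strand.

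Pparg encodes PPARγ. It was at 21.6, 22.3 and 23.6 FPKM in the controls, 9.22, 6.89 and 8.07 with R837, and 9.67, 8.12 and 9.05 with R837 and spermidine. Every treated library lay below every control library, and the treated groups overlapped. Pparg fell by 1.38 ± 0.11 with R837 (n = 3, limma adjusted p = 1.0e-05), to 35.8% of the control mean. With spermidine it was 0.14 above R837 alone (95% interval -0.10 to 0.38, limma adjusted p = 0.41) and fell by 1.24 ± 0.11 relative to control (limma adjusted p = 2.7e-05). Without the R837 libraries 2 and 3 the spermidine difference was -0.04. The ratio of Nr1h3 to Pparg was 0.550 to 0.624 in the controls, 2.47 to 3.57 with R837 and 1.61 to 2.03 with spermidine, 3 ranges that did not overlap. Pparg lies at chr6:115360951-115490399 on the plus strand, overlaps the annotated gene Gm44079, and has several starts, which values per gene do not separate.

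The export genes split. Abcg1 encodes a half-transporter that moves cholesterol to HDL particles. It was at 140, 145 and 141 FPKM in the controls, 52.7, 62.2 and 51.3 with R837, and 50.1, 45.6 and 45.6 with R837 and spermidine. The 3 groups did not overlap, and the order was control, R837, R837 with spermidine. Abcg1 fell by 1.35 ± 0.09 with R837 (n = 3, limma adjusted p = 2.9e-06) and by 1.57 ± 0.09 with R837 and spermidine relative to control (limma adjusted p = 1.8e-06). Between the treated groups the difference was -0.23 (95% interval -0.42 to -0.03), which was not called (limma adjusted p = 0.115) even though the libraries did not overlap. Abcg1 lies at chr17:31057675-31117988 on the plus strand and overlaps the annotated gene Gm25447.

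Abca1 encodes the transporter that loads cholesterol and phospholipid onto lipid-poor apolipoprotein A-I. Its values were 22.0, 27.5 and 25.3 FPKM in the controls, 25.9, 24.6 and 27.8 with R837, and 26.7, 30.2 and 26.5 with spermidine. All groups overlapped. The difference was 0.07 with R837 (95% interval -0.15 to 0.29), 0.09 with spermidine relative to R837 (-0.13 to 0.31) and 0.15 relative to control (-0.07 to 0.37), none of which was called. After median-of-ratios scaling the last was 0.35 and was called (limma adjusted p = 0.0207). The ratio of Abcg1 to Abca1 was 5.26 to 6.37 in the controls, 1.85 to 2.52 with R837 and 1.51 to 1.88 with spermidine, so every treated library was below every control library. Abca1 lies at chr4:53030787-53159895 on the minus strand.

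Apoe encodes apolipoprotein E, a secreted cholesterol acceptor and an LXR target in macrophages. It was at 23.6, 13.9 and 19.6 FPKM in the controls, 15.7, 14.1 and 15.9 with R837, and 15.7, 13.3 and 11.9 with spermidine. Control library 2 lay among the treated libraries, and the other 2 controls lay above all of them. The difference was -0.27 with R837 (95% interval -0.66 to 0.11, limma adjusted p = 0.22) and -0.43 with R837 and spermidine relative to control (-0.82 to -0.04, limma adjusted p = 0.0674). Without control library 2 both were called, at -0.47 (limma adjusted p = 0.0265) and -0.63 (limma adjusted p = 0.0078). With a replicate block the second was also called, at -0.43 (limma adjusted p = 0.0415), and the first was not. Apoe lies at chr7:19696109-19699188 on the minus strand.

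Mylip encodes IDOL, a ubiquitin ligase that LXR induces and that limits lipoprotein uptake. It was at 16.1, 17.4 and 16.0 FPKM in the controls, 17.9, 16.4 and 17.3 with R837, and 16.9, 14.6 and 16.1 with spermidine. The groups overlapped in every comparison. The 95% intervals were -0.13 to 0.23 for R837, -0.29 to 0.07 for spermidine relative to R837 and -0.24 to 0.12 for R837 and spermidine relative to control, and none of these differences was called. Mylip lies at chr13:45389742-45412022 on the plus strand.

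Plin2 encodes perilipin 2, the coat protein of lipid droplets in most cells that are not adipocytes, and had the highest level among the members. It was at 505, 514 and 470 FPKM in the controls, 195, 206 and 207 with R837, and 243, 281 and 270 with R837 and spermidine. The 3 groups did not overlap. By mean level it ranked 58 among the 11768 tested genes in the controls, 190 with R837 and 129 with spermidine. Plin2 fell by 1.29 ± 0.08 with R837 (n = 3, limma adjusted p = 1.8e-06), to 40.9% of the control mean. With spermidine it rose by 0.38 ± 0.08 relative to R837 alone (limma adjusted p = 0.0125), to 53.3% of the control mean, and still fell by 0.91 ± 0.08 relative to control (limma adjusted p = 2.3e-05). The rise with spermidine lost its call without spermidine library 3 (limma adjusted p = 0.0573) and when only the 2 groups entered the fit (limma adjusted p = 0.0515). It was 0.43 without the R837 libraries 2 and 3 (limma adjusted p = 0.0480). Plin2 lies at chr4:86648386-86670060 on the minus strand.

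Fabp4 encodes a fatty acid-binding protein that PPARγ induces in adipocytes and macrophages. It was at 25.1, 20.7 and 22.4 FPKM in the controls, 16.6, 15.8 and 14.2 with R837, and 14.3, 13.0 and 15.6 with spermidine. Every treated library lay below every control, and the treated groups overlapped. Fabp4 fell by 0.52 ± 0.10 with R837 (n = 3, limma adjusted p = 0.0028) and by 0.63 ± 0.10 with R837 and spermidine relative to control (limma adjusted p = 0.00096). The difference between the treated groups was -0.11 (95% interval -0.34 to 0.11). Fabp4 lies at chr3:10204088-10208576 on the minus strand.

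Lpl encodes lipoprotein lipase, which frees fatty acids from triglyceride-rich lipoproteins, and was the second most abundant member in the controls after Plin2. It was at 157, 149 and 159 FPKM in the controls, 172, 123 and 185 with R837, and 151, 177 and 175 with spermidine. The range of the R837 libraries held every value of the other groups, and R837 library 2, the one with low Itgam, was the lowest of all 9. The 95% intervals were -0.29 to 0.35 for R837, -0.24 to 0.40 for spermidine relative to R837 and -0.21 to 0.43 for R837 and spermidine relative to control, and none of these differences was called. Lpl lies at chr8:68880491-68907448 on the plus strand. All positions of genes are those of GENCODE mouse release M21 on mm10.

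**Figure D2:**
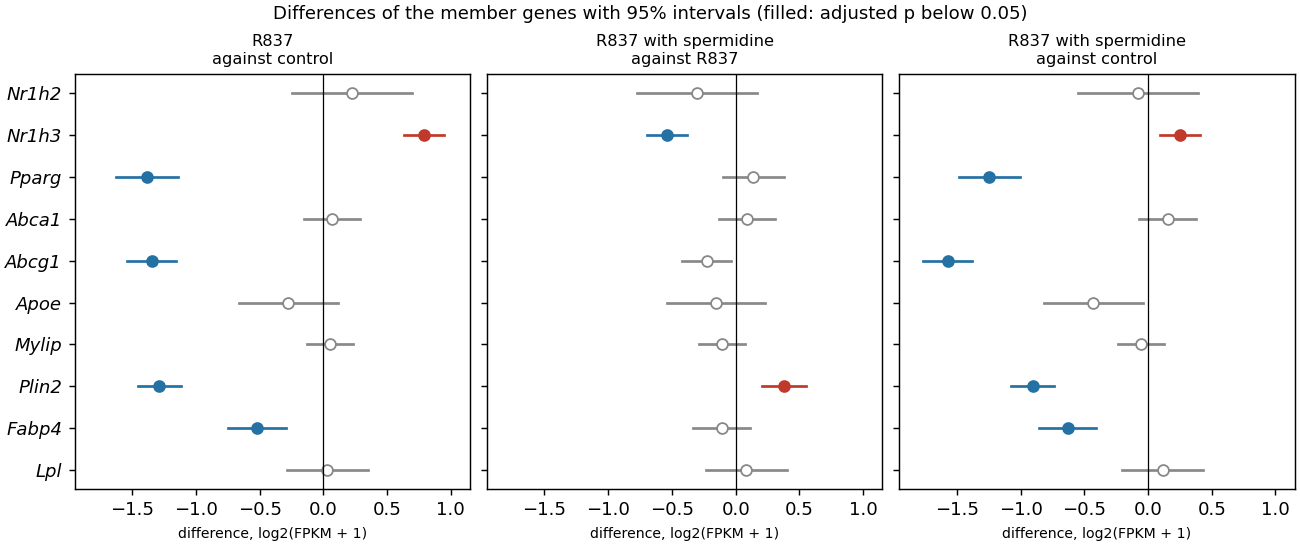
Difference of each member on the log2(FPKM + 1) scale (horizontal axis) with its 95% interval in the 3 comparisons; filled points passed the threshold, red for higher and blue for lower, and open grey points did not. R837 against control shows 1 red and 4 blue points, R837 with spermidine against R837 shows Plin2 in red and Nr1h3 in blue, and R837 with spermidine against control again shows 1 red and 4 blue.

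Summed over the 10 members, the level was 912 to 944 FPKM in the controls, 520 to 570 with R837 and 569 to 613 with spermidine. Plin2 made up 51.5% to 54.4% of that sum in the controls, 35.2% to 39.6% with R837 and 42.8% to 45.8% with spermidine, ranges that did not overlap. The order of mean levels in the controls was Plin2, Lpl, Abcg1, Abca1, Fabp4, Pparg, Nr1h2, Apoe, Mylip and Nr1h3. Neighbours in that order from Abca1 to Mylip overlapped in their control libraries, the other neighbours did not, and Nr1h3 lay below Mylip in every control. With R837, Plin2, Lpl and Abcg1 kept the first places, Nr1h3 stood above Mylip in every library, and Pparg was the lowest of the 10 in every library.

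Over the 9 libraries, Pearson's r of log2(FPKM + 1) was 0.95 between Pparg and Abcg1, 0.95 between Pparg and Plin2, 0.91 between Pparg and Fabp4 and -0.88 between Nr1h3 and Plin2. These coefficients describe 9 points in 3 groups, are carried by the group differences above and share the scaling of each library. The genes whose pattern was most like that of a member, over all tested genes and the 9 libraries, were Lpxn (r = 0.999), Inpp5d and S1pr2 for Plin2. For Abcg1 they were Cracr2a (r = 0.998), Dgkz and Ttyh2, and for Pparg they were Rnf169 (r = 0.997), Hpse and Tbc1d14. Nr1h3 was matched most closely by Col15a1 (r = 0.992), Ikzf1 and Hk2, and Fabp4 by Fam53b (r = 0.984), Castor1 and Alkbh2. For the members that were called in no comparison, the closest genes reached 0.95 for Nr1h2 (4930413G21Rik), 0.94 for Abca1 (Gm38077), 0.95 for Apoe (Kif1bp), 0.94 for Mylip (Tpd52l2) and 0.97 for Lpl (Fmnl2).

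Other genes of the same pathways were taken as 7 lists with 110 genes, of which 89 passed the filter and were tested. Of the 89, 10 were called higher and 44 lower with R837, with a median of -0.29, and 12 higher and 7 lower with spermidine relative to R837, with a median of -0.01. Relative to control, R837 with spermidine called 11 higher and 48 lower. Of all 11768 tested genes, 13.6% were called higher and 29.5% lower with R837, and 5.6% and 8.0% with spermidine relative to R837. For R837 with spermidine relative to control the shares were 14.1% and 32.7%. The numbers for each list follow and are to be read beside these shares, against which no list was tested. List medians stand beside the medians of all genes of -0.17, -0.02 and -0.17 given above.

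**Figure D3:**
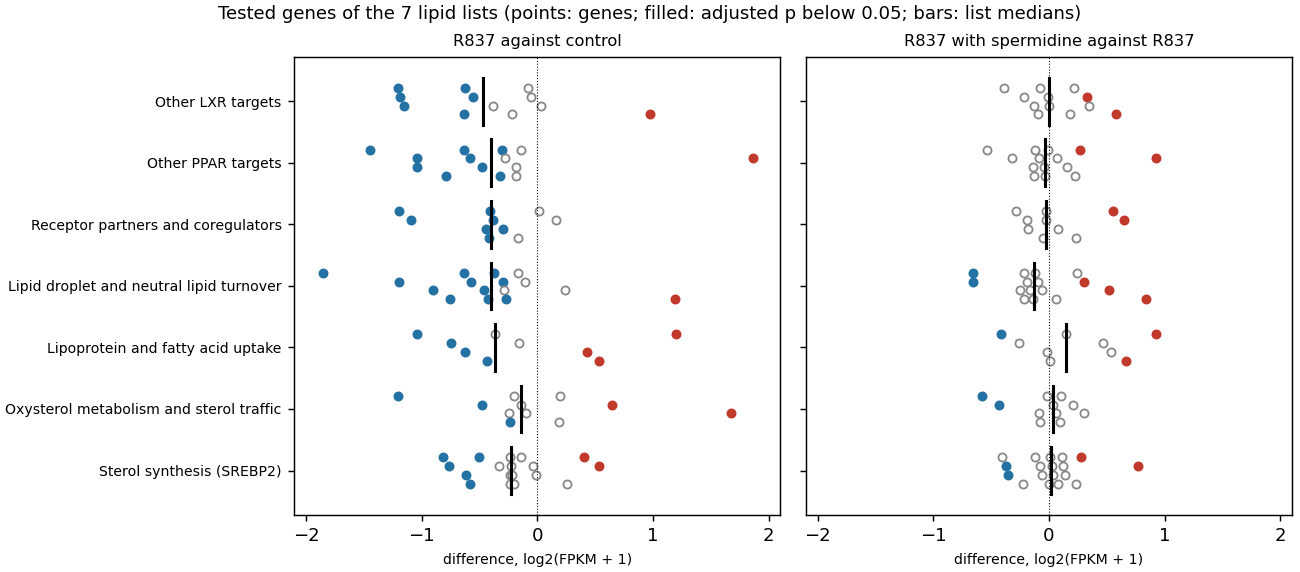
Difference on the log2(FPKM + 1) scale (horizontal axis) of each tested gene in 7 lists of lipid genes, for R837 against control and for R837 with spermidine against R837; filled points passed the threshold (red higher, blue lower), and black bars are list medians. With R837 the medians of all 7 lists lie below 0, from -0.47 to -0.14, and with spermidine relative to R837 they lie between -0.13 and 0.15.

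Among the partners and coregulators of these receptors, 10 of 13 genes were tested, 7 were called lower and none higher with R837, and the median was -0.40. Rxra, the retinoid X receptor α that pairs with both LXR and PPAR, fell from 15.6 ± 1.23 to 6.79 ± 0.734 FPKM (-1.09 ± 0.09, limma adjusted p = 2.1e-05). With spermidine it was at 8.14 ± 0.464 FPKM, a difference of 0.23 from R837 alone that was not called (95% interval 0.02 to 0.45). Rxrb fell from 16.0 ± 0.549 to 11.9 ± 1.78 FPKM with R837, a call lost after median-of-ratios scaling (limma adjusted p = 0.0984). The coactivator gene Ncoa3 fell from 23.3 ± 0.761 to 16.9 ± 1.40 FPKM. The call of Ncor1 with R837, at -0.30, was lost in 10 of 19 alternatives. Ppargc1b, a coactivator of PPAR receptors, fell from 4.68 ± 0.709 to 1.50 ± 0.548 FPKM.

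Of this list, 2 genes were called higher with spermidine relative to R837 and none lower. Ppard, which encodes PPARδ, was at 21.7, 24.9 and 22.1 FPKM in the controls, 21.6, 25.1 and 22.7 with R837, and 36.8, 38.6 and 35.2 with R837 and spermidine. The control and R837 libraries overlapped, and all 3 spermidine libraries lay above them. Ppard rose by 0.65 ± 0.08 relative to R837 (limma adjusted p = 0.0019) and by 0.67 ± 0.08 relative to control (limma adjusted p = 0.00027), and neither call was lost in any of 19 alternatives. The second gene, Ppargc1b, was 0.55 higher, a call lost in 13 of 18 alternatives. Relative to control, R837 with spermidine called 1 gene of the list higher and 7 lower.

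Of the other LXR targets, 12 of 16 were tested, 1 was called higher and 6 lower with R837, and the median was -0.47. Mertk, a receptor for engulfing dead cells, fell from 20.2 ± 1.79 to 8.55 ± 0.665 FPKM (-1.15 ± 0.09, limma adjusted p = 1.3e-05). The stearoyl-CoA desaturase gene Scd2 fell from 3.61 ± 0.573 to 1.02 ± 0.212 FPKM. Its relative Scd1 fell from 6.22 ± 3.64 to 1.91 ± 0.265, but its call did not hold without the R837 libraries 2 and 3 (limma adjusted p = 0.0796). Tgm2, transglutaminase 2, went the other way and rose from 182 ± 6.41 to 362 ± 46.5 FPKM (0.98 ± 0.09, limma adjusted p = 3.2e-05). Srebf1, the lipogenic transcription factor gene that LXR induces, was at 11.2 ± 0.811, 10.8 ± 1.83 and 10.7 ± 0.512 FPKM in the 3 groups and was not called (95% interval for R837 -0.31 to 0.20).

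With spermidine relative to R837, 2 of these 12 were called higher and none lower. Scd2 rose to 2.02 ± 0.200 FPKM (0.58 ± 0.12, limma adjusted p = 0.0155), which was not called without spermidine library 2 (limma adjusted p = 0.0637). Arl4c, a small GTPase gene, was 0.32 higher, a call lost in 11 of 19 alternatives. Relative to control, 2 of the list were called higher and 6 lower.

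Of the other PPAR targets, 14 of 17 were tested, 1 was called higher and 9 lower with R837, and the median was -0.40. Angptl4, an inhibitor of lipoprotein lipase, fell from 2.17 ± 0.359 to 0.158 ± 0.0214 FPKM and passed the filter only through the controls. Cpt1a, which brings fatty acids into mitochondria for oxidation, fell from 39.1 ± 3.23 to 18.4 ± 0.517 FPKM (-1.04 ± 0.08, limma adjusted p = 8.0e-06). Fabp5, the fatty acid-binding protein of macrophages and skin, fell from 314 ± 10.9 to 181 ± 5.06 FPKM. Acsl1, an acyl-CoA synthetase gene, rose from 24.4 ± 5.57 to 91.9 ± 21.3 FPKM (1.87 ± 0.20, limma adjusted p = 7.6e-05). With spermidine Acsl1 was at 61.8 ± 1.46 FPKM, a difference of -0.54 from R837 alone that was not called (95% interval -0.99 to -0.09).

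Of this list, 2 genes were called higher with spermidine relative to R837 and none lower, and 1 was called higher and 11 lower relative to control. Cd36, a fatty acid and oxidised LDL receptor, was at 150, 132 and 148 FPKM in the controls, 75.6, 43.6 and 99.0 with R837, and 111, 140 and 148 with spermidine. The R837 libraries lay below the others, and those with spermidine overlapped the controls. Cd36 fell by 1.04 ± 0.25 with R837 (limma adjusted p = 0.0092) and rose by 0.93 ± 0.25 with spermidine relative to R837 (limma adjusted p = 0.0418), the latter a call lost in 9 of 19 alternatives. The second gene was Cpt1a, 0.27 higher, whose call was lost in 15 of 19.

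Of the genes of lipid droplets and neutral lipid turnover, 16 of 21 were tested, 1 was called higher and 11 lower with R837, and the median was -0.40. Nceh1, a neutral cholesterol ester hydrolase, was at 49.3, 50.4 and 47.1 FPKM in the controls and 12.9, 12.4 and 13.3 with R837 (-1.85 ± 0.07, limma adjusted p = 1.0e-07). Soat1, which esterifies cholesterol for storage, fell from 74.8 ± 1.38 to 32.4 ± 4.88 FPKM, so genes of both directions of the cholesterol ester cycle were lower. The triglyceride lipase gene Pnpla2 fell from 50.4 ± 0.338 to 29.8 ± 5.02 FPKM. Dgat2, which makes triglyceride, rose from 1.18 ± 0.0295 to 4.03 ± 0.814 FPKM (1.19 ± 0.12, limma adjusted p = 6.7e-05).

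With spermidine relative to R837, 3 of these 16 were called higher and 2 lower. Lipa, the lysosomal acid lipase gene, was at 443, 427 and 425 FPKM in the controls, 247, 193 and 254 with R837, and 388, 428 and 421 with R837 and spermidine. The spermidine libraries overlapped the controls and lay above all R837 libraries. Lipa fell by 0.91 ± 0.10 with R837 (limma adjusted p = 0.00013) and rose by 0.84 ± 0.10 with spermidine relative to R837 (limma adjusted p = 0.0015), and neither call was lost in any of 19 alternatives. Relative to control the difference was -0.06 (95% interval -0.30 to 0.17).

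Nceh1 was at 15.9, 15.6 and 17.0 FPKM with spermidine, 0.31 above R837 alone, a call lost in 4 of 19 alternatives. Abhd5, the activator of the lipase encoded by Pnpla2, was at 7.63 ± 1.88 FPKM with R837 and 11.1 ± 0.105 with spermidine, a call lost in 12 of 19. Dgat2 fell to 2.17 ± 0.250 FPKM (-0.66 ± 0.12, limma adjusted p = 0.0103) and Soat2 from 6.41 ± 0.438 to 3.71 ± 0.537 FPKM (-0.66 ± 0.11, limma adjusted p = 0.0054). Without the R837 libraries 2 and 3 these 2 calls were lost (limma adjusted p = 0.104 and 0.0793). Relative to control, 1 gene of the list was called higher and 11 lower.

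**Figure D4:**
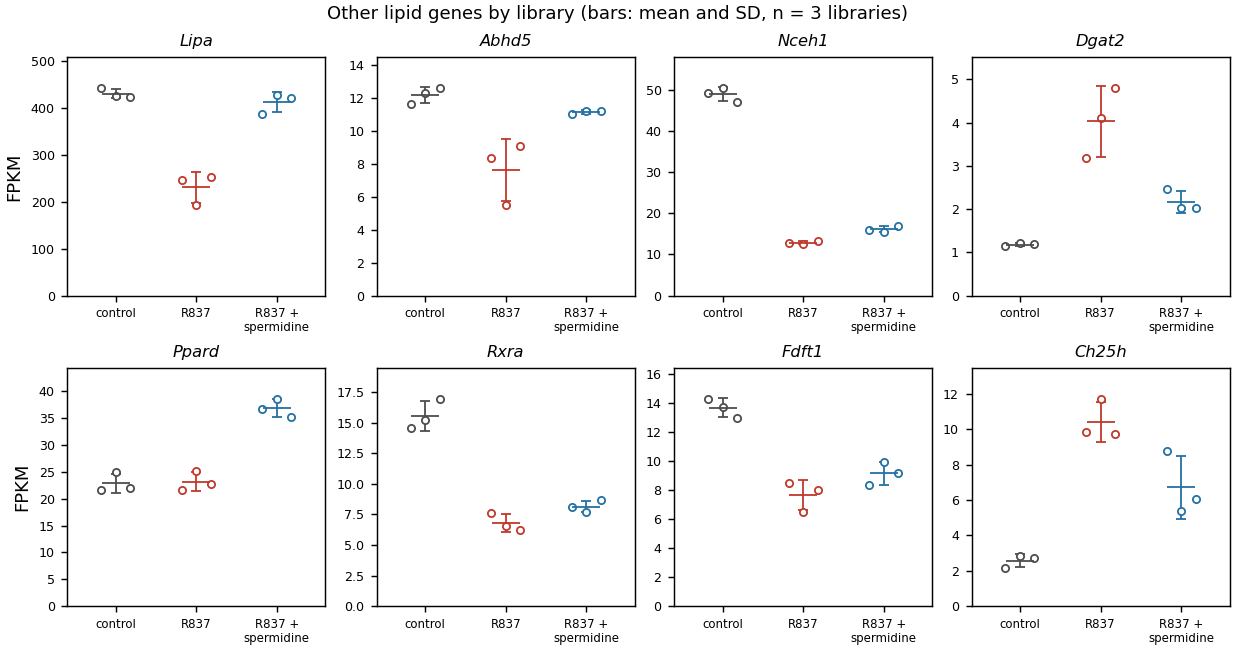
Level in FPKM (vertical axes, each from 0) of 8 other lipid genes in the 3 libraries of each group; circles are libraries, and bars are means with SD. With R837, Lipa, Abhd5, Nceh1, Rxra and Fdft1 lie below the controls and Dgat2 and Ch25h above; with spermidine Lipa overlaps the controls, Nceh1 and Rxra stay far below them, and Ppard lies above both other groups.

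Of the uptake genes, 9 of 12 were tested, with 3 called higher and 4 lower with R837 and a median of -0.36. Scarb1, the HDL receptor gene SR-BI, fell from 5.26 ± 0.109 to 2.74 ± 0.344 FPKM (-0.75 ± 0.10, limma adjusted p = 0.00025). Lrp1, a receptor for apolipoprotein E-rich remnants, fell from 47.4 ± 4.27 to 34.8 ± 4.60 FPKM, a call lost after median-of-ratios scaling (limma adjusted p = 0.0827). Marco, a scavenger receptor gene, rose from 11.7 ± 0.520 to 16.1 ± 1.59 FPKM, but not past the threshold without the R837 libraries 2 and 3 (limma adjusted p = 0.0692). Olr1, the oxidised LDL receptor gene, was at 27.2, 24.5 and 28.3 FPKM in the controls and 100, 25.1 and 95.2 with R837. R837 library 2, the one with low Itgam, thus lay among the controls. With spermidine Olr1 was at 87.7, 90.7 and 81.9 FPKM. Its rise with R837 was called at 1.20 (limma adjusted p = 0.0493), a call lost in 13 of 19 alternatives. Its rise with R837 and spermidine relative to control, at 1.67 (limma adjusted p = 0.0116), kept its call in all 19.

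With spermidine relative to R837, 2 uptake genes were called higher and 1 lower, and relative to control 3 were called in each direction. Besides Cd36, Lrp8, a receptor for apolipoprotein E and reelin, rose from 1.69 ± 0.251 to 3.25 ± 0.254 FPKM (0.66 ± 0.11, limma adjusted p = 0.0058), and its control level was 2.01 ± 0.304. Marco was lower with spermidine, at 11.8 ± 1.48 FPKM, a call lost in 11 of 19 alternatives.

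Of the genes of oxysterol metabolism and sterol traffic, 11 of 14 were tested, with 2 called higher and 3 lower with R837 and a median of -0.14. Ch25h, which makes the oxysterol 25-hydroxycholesterol, was at 2.15, 2.84 and 2.74 FPKM in the controls, 9.83, 11.7 and 9.72 with R837, and 8.75, 5.40 and 6.05 with spermidine. All 3 groups were separate. Ch25h rose by 1.68 ± 0.16 with R837 (limma adjusted p = 3.9e-05). Cyp27a1, which makes 27-hydroxycholesterol, an LXR ligand, fell from 2.94 ± 0.359 to 0.707 ± 0.0918 FPKM and passed the filter only through the controls. Gramd1a, a sterol transfer protein gene, rose from 8.83 ± 0.0891 to 14.4 ± 0.907 FPKM, and Npc1, which exports cholesterol from lysosomes, fell from 69.4 ± 3.30 to 49.6 ± 2.07.

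With spermidine relative to R837, none of these 11 was called higher and 2 were called lower, and relative to control 1 was called higher and 2 lower. The lower genes were Ch25h (-0.58 ± 0.16, limma adjusted p = 0.0432, lost in 13 of 19 alternatives) and Gramd1a (-0.43 ± 0.10, limma adjusted p = 0.0219, lost in 4 of 19).

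Of the 18 genes of sterol synthesis, all were tested, with 2 called higher and 5 lower with R837 and a median of -0.23. Dhcr7, Fdft1 and Lss, enzymes of the later steps, fell with R837 by 0.81, 0.76 and 0.61. Srebf2, which encodes the transcription factor that drives this pathway, rose from 20.0 ± 0.576 to 27.0 ± 3.47 FPKM.

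With spermidine relative to R837, 2 of the 18 were called higher and 2 lower, and relative to control 2 were called higher and 8 lower. Insig1, the sterol-sensing retention protein, was at 22.7 ± 0.603 FPKM with R837 and 27.8 ± 1.24 with spermidine, a call lost in 7 of 19 alternatives. Srebf2 was lower at 20.8 ± 0.814 FPKM, lost in 9 of 19, and Mvd was 0.37 lower, lost in 15 of 19.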

How the data were processed

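Deposited values were FPKM per gene and library, made by the authors, per the file headers. The submitters' processing notes name HISAT2 and StringTie, without versions, and the builds mm8 and mm10, without roles. The annotation used, filters and strand of counting are not given in the sources used here. Of 52550 Ensembl identifiers per library, 52403 (99.7%) matched GENCODE mouse release M21 without the version suffix, and 73 symbols had several identifiers, which were summed. All 37 mitochondrial genes were listed at 0, so a 0 need not mean absence. Depth was read from the steps of low values of genes with 1 transcript.

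Genes with 1 FPKM or more in at least 3 of 9 libraries were tested on log2(FPKM + 1), a log2 scale that understates changes of low genes, computed from the deposited values. One limma fit (limma 3.58.1, R 4.3.3, moderated variance with trend, two-sided) held all 9 libraries and 3 comparisons, with Benjamini-Hochberg adjustment within each. FPKM are not counts, so no count test was used. The fit was tested on simulated data.

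The members, lists and rules were chosen with earlier results of these data known. Named genes were the 10 members, up to 3 genes per list and comparison with the largest difference past the threshold, fixed receptor partners, and the 3 genes most correlated with each member. Some genes of the rule are not reported here. Abhd5, Insig1 and 8 called markers were added after their values were seen. RefSeq promoter windows were searched on both strands. Alternatives were a pseudocount of 0.1, no filter, a mean FPKM of at least 5, TPM, median-of-ratios scaling, quantile normalization, single identifiers, each library left out, a replicate block and only the 2 groups compared. Figures were drawn with matplotlib 3.10.9.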

Additional observations from a re-analysis of the deposited data

How the results depend on the processing

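Over 30 results (10 members in 3 comparisons) and 19 alternatives each, 561 of 570 values kept the call, 5 lost it and 4 gained it. No value changed sign with a call. Of the 561 that kept the call, 14 values in 7 results without a call changed sign. The members whose calls changed were Nr1h3, Abca1, Apoe and Plin2, as given beside them. Among 44 other genes chosen as in the processing summary, 2290 of 2472 values kept the call, 170 lost it and 12 gained it. Among 8 cell type markers named beside the members, 384 of 453 values kept the call, 68 lost it and 1 gained it. The number of genes called for R837 against control was 5081, and 2925 with a mean FPKM of at least 5. For R837 with spermidine against control it was 5508, and 3152 with that filter. Those filters test fewer genes. For R837 with spermidine against R837 it was 1601, 757 with only the 2 groups compared and 826 without the R837 libraries 2 and 3 together, an alternative added after the data were seen. Leaving out 1 library in turn gave 4013 to 5580, 749 to 1672 and 4404 to 6512 genes in the order R837 against control, spermidine against R837 and spermidine against control. In the second of these, 766 and 749 were left without spermidine library 2 and library 3. Members called numbered 5 to 6, 1 to 2 and 4 to 6. With only the 2 groups compared, 1 member was called for spermidine against R837. With a replicate block the genes called were 4813, 1131 and 5245 and the members called 5, 2 and 6, the sixth being Apoe for spermidine against control (limma adjusted p = 0.0415). The replicate numbers were not shown to pair the libraries, since the deviations of same-numbered libraries from their group means correlated at -0.09 to 0.16 over 9 pairs. The cause of these changes was not tested beyond the fewer genes or libraries that some alternatives hold. Values near 1 FPKM rest on 11 to 14 units per kilobase and carry a large counting error.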
